A study of Rattus norvegicus with 11 samples.

Results

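Soleus libraries with a high level of Myh2, the gene of the type 2A myosin heavy chain, were compared with libraries with a low level. The libraries compared were chosen by their Myh2 level alone: the 11 libraries of the series were ranked by Myh2 CPM (counts-per-million, the count scaled to the library total). The 5 highest formed the Myh2-rich side, the 5 lowest the Myh2-poor side, and the library of middle rank was left out, so 10 of 11 libraries entered the comparison. The sides are thus selected on a measured value, the Myh2 level of the same libraries, and are not groups of the study, and Myh2 itself was left out of every test.

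Each library came from the soleus, a hind limb muscle, of 1 male Sprague Dawley rat at 12 months of age. The animals came from 11 different litters. Mothers ate either a control diet (6% fat and 10% sucrose by weight in the protocol, 7% fat in the design text) or a diet of lard and sucrose (23.3% fat and 20% sucrose in the protocol, 23.5% fat in the design text). The diets ran from 3 weeks before mating through pregnancy and lactation. All offspring were weaned at day 21 onto standard chow, and were fasted briefly before tissue collection under isoflurane. There were 6 offspring of control mothers (control 1 to 6) and 5 of high-fat mothers (high-fat 1 to 5), numbered here in accession order.

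Skeletal muscle fibres are classed by the myosin heavy chain they carry. Type 1 fibres are slow and oxidative and use Myh7, type 2A fibres are fast and oxidative and use Myh2, and types 2X and 2B are fast and more glycolytic and use Myh1 and Myh4. The rat soleus is made up mostly of type 1 fibres with a minority of type 2A fibres. Fast and slow fibres also differ in their thin-filament regulators. The troponin complex, which senses calcium, and tropomyosin, which covers the myosin binding sites on actin, both exist in fast and slow forms.

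The Myh2 values that set the sides are given as a description, with no test. Control 6 held 2143 CPM, high-fat 2 held 2107, control 4 held 2101, control 2 held 1878 and control 5 held 591. High-fat 1, the middle library, held 566 CPM. On the poor side, control 1 held 496 CPM, high-fat 5 held 382, high-fat 3 held 275, control 3 held 111 and high-fat 4 held 102. Thus 4 libraries stood at 1878 CPM or above, and the last library of the rich side lay closer to the middle library than to the other rich libraries. When Myh2 was scaled with the trimmed mean of M-values (TMM, a correction for differences in RNA composition), control 5 and high-fat 1 changed places and 9 of the 10 libraries kept their side.

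**Figure D1:**
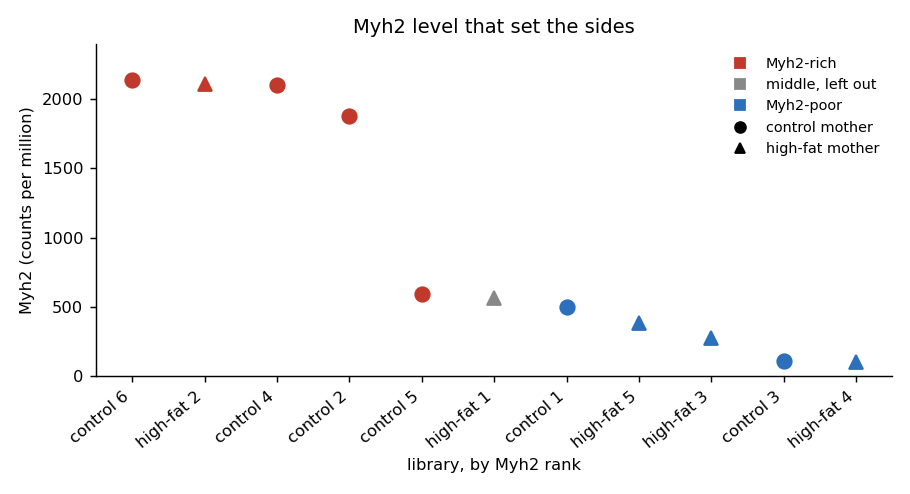
Myh2 level (CPM, linear axis) in each of the 11 libraries in rank order, with circles for control mothers and triangles for high-fat mothers. The 5 rich libraries (red) run from 2143 to 591 CPM, the middle library (grey) holds 566 and the 5 poor libraries (blue) run from 496 to 102.

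Both diet groups fell on both sides. The Myh2-rich side held 4 control and 1 high-fat library, and the Myh2-poor side held 2 control and 3 high-fat libraries, while the middle library was high-fat (Fisher's exact test over the 10 libraries, two-sided p = 0.524). The animal names begin with A, C or H, and the labels do not say what the letter stands for. The rich side held 3 A and 2 H animals and no C animal, and the poor side held 1 A, 3 C and 1 H, so the letter and the side are partly mixed. Diet and letter were therefore each added as a covariate, and the calls that these covariates end are given beside the results. With the letter as a covariate, the side difference came from the A and H animals only. Their libraries on the poor side were high-fat 5 and high-fat 4, so that fit could not separate letter, side and diet fully.

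Library totals ran from 10.2 M to 15.4 M counts, with 12.8 ± 2.1 M on the rich side and 12.8 ± 2.2 M on the poor side (SD, n = 5 each, exact permutation test, two-sided p = 0.984). A count of 0 allowed a level of up to 0.195 to 0.295 CPM, depending on the library (3 counts, counting error only). Control 5 stood apart in a gene of myelinating Schwann cells: Mbp, encoding myelin basic protein, was at 843 CPM there, against at most 96.7 CPM in the other 10 libraries. The slow myosin Myh7, the defining marker of the labelled muscle, was at 17355 to 25132 CPM in all 11 libraries.

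Among the gene lists examined, 5 of 12 fast contractile genes and 9 of 27 genes of the glycolysis and glycogen list were called higher in the rich libraries. 15 of 20 genes of fibroblasts and matrix and 17 of 18 macrophage genes were called lower. Most called genes were in none of these lists. Of 10740 genes tested with edgeR's quasi-likelihood test, 450 (4.19%) passed a Benjamini-Hochberg adjusted p of 0.05, and 2176 (20.3%) had an unadjusted p under 0.05. Of the 450, 80 (0.745% of all genes tested) were higher and 370 (3.45%) were lower in the rich libraries. All 5 rich libraries lay above all 5 poor libraries for 180 genes (1.68%) and below them for 400 genes (3.72%), and 345 of the 450 called genes were among these. The size of the called set depended on single libraries and on the boundary of the sides: 93 genes (39 higher, 54 lower) passed with the sides from TMM-scaled Myh2, 84 of them among the 450, and 77 passed without high-fat 2. With diet as a covariate 130 genes passed (20 higher, 110 lower), 123 of them among the 450. With the name letter 430 passed (50 higher, 380 lower), 277 of them among the 450. Without control 5, 316 passed (113 higher, 203 lower). With library totals as the only scaling, 41 genes were higher and 566 lower, so 6.75% of the calls were higher against 17.8% in the comparison above, and the median log2 fold change of all genes moved from -0.01 to -0.15.

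A second fit used the level of Myh2 as a number in all 11 libraries, with diet as a covariate, and gave each gene's slope: the change in log2 expression for each unit of log2 Myh2. Of 11203 genes tested, 6 (0.0536%) passed an adjusted p of 0.05 in edgeR's quasi-likelihood test, all with a positive slope. They were Tnni2, Tnnt3, Tnnc2, Tpm1, Mylpf and Rab3b, so 5 of the 6 encode proteins of the sarcomere. No gene's slope differed between the diet groups past the threshold: the interaction passed in 0 of 11203 genes in edgeR's test, 299 (2.67%) had an unadjusted p under 0.05, and the smallest adjusted p was 0.99987.

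Per-library levels below are TMM-scaled CPM over all 11 libraries. Rich libraries are listed as control 6, high-fat 2, control 4, control 2 and control 5, and poor libraries as control 1, high-fat 5, high-fat 3, control 3 and high-fat 4. Fold changes are log2 values of rich over poor with their standard error, from 5 against 5 libraries, and adjusted p-values come from edgeR's quasi-likelihood test. In whole muscle, fewer cells of a type and less RNA per cell cannot be told apart.

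The sequences just before the start sites of the fast sarcomere genes are shown because these genes were called higher in the Myh2-rich libraries. The slope on Myh2 passed for Tnni2, Tnnc2 and Tpm1, and not for Mybpc2 or Myoz1. The 250 bases before the annotated start were taken from the RefSeq promoter table (build GRCr8). Of 7 fast sarcomere genes searched for, including Mylpf, which was not called between the sides, 5 were matched. They lie as follows: Tnni2 at chr1:207024240-207024489 (plus strand), Tnnc2 at chr3:173935340-173935589 (minus strand), Mybpc2 at chr1:104154102-104154351 (minus strand), Myoz1 at chr15:3693363-3693612 (plus strand) and Tpm1 at chr8:76543416-76543665 (minus strand). Capitals mark the E-box letters CANNTG, the core recognised by basic helix-loop-helix factors such as the MyoD family.
Tnni2: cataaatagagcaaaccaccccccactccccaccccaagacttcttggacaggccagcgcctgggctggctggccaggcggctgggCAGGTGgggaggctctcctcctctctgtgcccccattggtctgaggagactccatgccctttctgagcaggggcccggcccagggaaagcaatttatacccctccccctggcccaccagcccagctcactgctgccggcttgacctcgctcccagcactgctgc
Tnnc2: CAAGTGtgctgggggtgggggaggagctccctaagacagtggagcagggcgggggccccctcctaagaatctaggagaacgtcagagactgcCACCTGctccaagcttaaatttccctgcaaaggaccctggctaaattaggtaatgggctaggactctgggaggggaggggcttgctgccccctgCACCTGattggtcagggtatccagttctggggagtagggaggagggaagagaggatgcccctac
Mybpc2: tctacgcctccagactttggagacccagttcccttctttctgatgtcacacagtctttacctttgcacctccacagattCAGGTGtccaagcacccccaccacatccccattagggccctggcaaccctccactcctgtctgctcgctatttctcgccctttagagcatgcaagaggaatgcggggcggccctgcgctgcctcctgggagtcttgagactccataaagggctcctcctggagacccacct
Myoz1: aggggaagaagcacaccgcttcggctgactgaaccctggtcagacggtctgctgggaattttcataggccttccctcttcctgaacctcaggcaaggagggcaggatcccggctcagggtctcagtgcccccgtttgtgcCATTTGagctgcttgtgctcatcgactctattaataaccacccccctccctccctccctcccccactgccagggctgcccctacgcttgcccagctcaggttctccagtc
Tpm1: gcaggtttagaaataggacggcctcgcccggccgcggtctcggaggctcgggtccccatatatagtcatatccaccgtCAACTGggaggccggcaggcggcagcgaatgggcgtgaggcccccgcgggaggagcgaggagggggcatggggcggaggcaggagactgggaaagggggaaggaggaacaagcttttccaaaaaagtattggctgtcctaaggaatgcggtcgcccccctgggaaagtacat
All 5 hold at least 1 CANNTG, as do 65.2% of the 27457 rat promoter windows of the same length. The narrower letters CAGGTG or CACCTG, which are 1 motif read on its 2 strands and fall within CANNTG, are in 3 of the 5 (Tnni2, Tnnc2 and Mybpc2) and in 15.6% of all windows. CATTCC or GGAATG, again 1 motif on 2 strands, is in 2 of the 5 and in 11.8% of all windows. A match is a description of letters only, and the start sites used in these libraries were not measured.

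The fast troponin subunits followed Myh2 across the whole range. Tnni2, the inhibitory subunit of fast troponin, was at 1327, 1350, 1610, 967 and 529 CPM in the rich libraries and at 307, 218, 188, 59.4 and 108 CPM in the poor libraries. The middle library, at 528 CPM, matched control 5, and no rich library overlapped a poor one. The fold change was 2.72 ± 0.41 (adjusted p = 0.0074), and the slope was 0.96 ± 0.07, close to proportional to Myh2.

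Tnnt3, the tropomyosin-binding subunit of fast troponin, was at 22192, 20601, 28055, 16217 and 10474 CPM in the rich libraries. In the poor libraries it was at 6603, 7477, 4082, 1239 and 2466 CPM, with 10393 in the middle library. The sides did not overlap, and the 2 libraries lowest in Myh2 were also the 2 lowest in Tnnt3. The fold change was 2.16 ± 0.43 (adjusted p = 0.0199) and the slope 0.85 ± 0.08. The call for the sides was lost with diet or letter as a covariate and without high-fat 2, while the slope passed in all 11 fits that left out 1 library each.

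Tnnc2, the calcium-binding subunit of fast troponin, was at 1463, 1327, 1589, 1038 and 544 CPM in the rich libraries. The poor libraries held 395, 365, 399, 204 and 287 CPM, and the middle library held 508. Here too the sides were apart, with control 5 nearest to the poor side. The fold change was 1.85 ± 0.27 (adjusted p = 0.00693) and the slope 0.60 ± 0.06.

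Tpm1 encodes the alpha tropomyosin, the form of fast fibres. It was at 5530, 5803, 5373, 4748 and 3910 CPM in the rich libraries and at 1756, 2009, 1352, 1039 and 963 CPM in the poor libraries, with 2555 in the middle. The rich libraries spanned a narrow range and every one of them lay above the poor ones. The fold change was 1.83 ± 0.21 (adjusted p = 0.00258) and the slope 0.58 ± 0.06. Like Tnni2 and Tnnc2, Tpm1 passed in all 21 alternative fits of the sides, and the slopes of all 3 passed in all 11 fits that left out 1 library.

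Mybpc2, the fast form of the thick-filament protein myosin-binding protein C, had the largest fold change among the called genes of the fast list, 3.84 ± 0.49 (adjusted p = 0.0034). It was at 26.4, 55.9, 46.7, 115 and 108 CPM in the rich libraries and at 6.20, 9.13, 4.77, 1.73 and 2.36 CPM in the poor libraries. Its order within the rich side was not that of Myh2: control 2 and control 5, the lowest in Myh2 there, were the highest in Mybpc2. Myoz1, the fast form of the Z-disc protein calsarcin, was at 340, 290, 388, 280 and 216 CPM in the rich libraries and at 130, 118, 132, 109 and 129 CPM in the poor ones. The poor libraries were nearly level in Myoz1 although their Myh2 was not, and the middle library, at 280 CPM, lay with the rich side. Its fold change was 1.29 ± 0.14 (adjusted p = 0.00197).

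**Figure D2:**
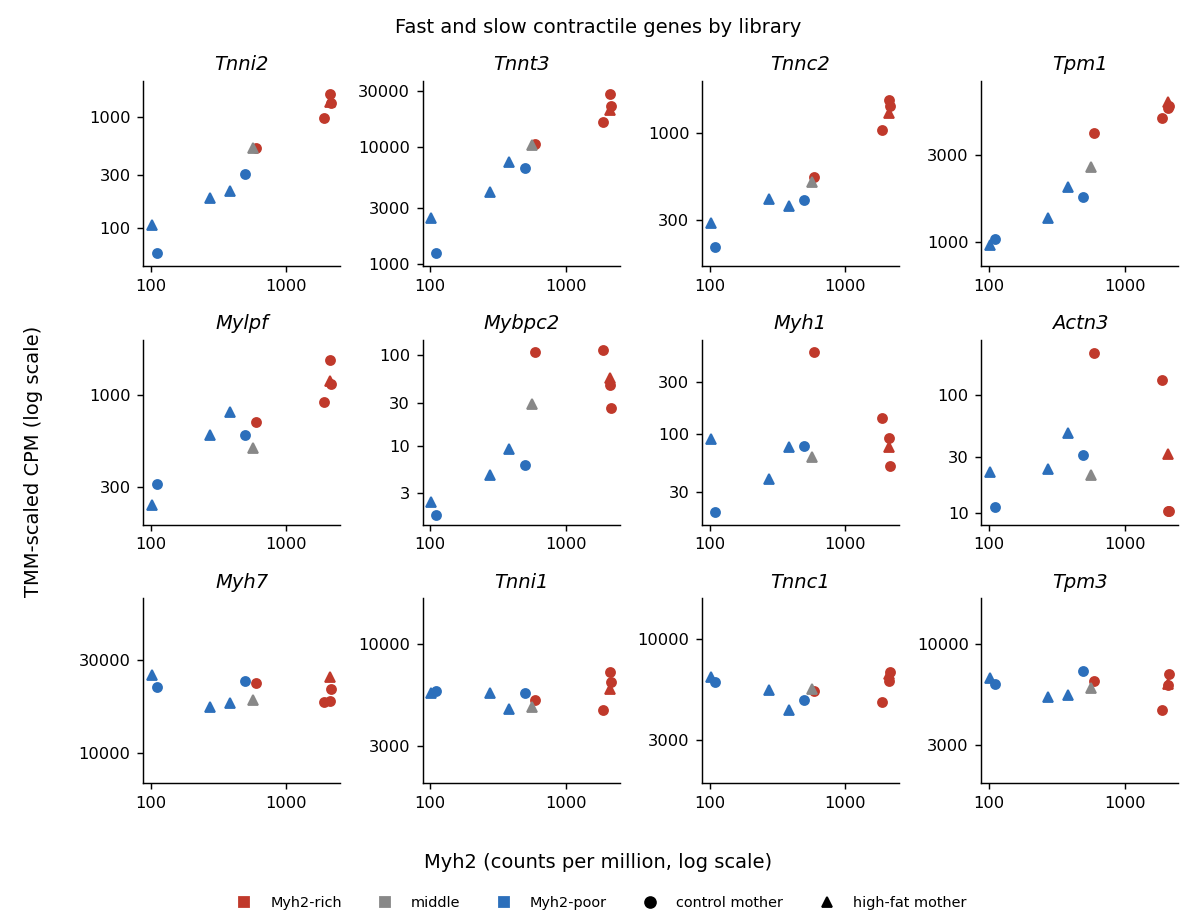
TMM-scaled CPM (log axis) of 12 contractile genes against Myh2 CPM (log axis) in the 11 libraries, with 1 point per library (red Myh2-rich, grey middle, blue Myh2-poor, circles control, triangles high-fat). Tnni2, Tnnt3, Tnnc2 and Tpm1 climb along the whole Myh2 range, Myh1 and Actn3 are high in control 5 and control 2, and the slow genes of the last row lie level.

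Of the 13 genes listed as fast contractile, 12 had a row and were tested, and 5 were higher and none lower, against 0.745% of all genes called higher. The list median was 1.59, beside -0.01 over all genes tested. Mylpf, the fast regulatory light chain, missed the threshold for the sides (1.12 ± 0.31, adjusted p = 0.0597) and passed as a slope (0.47 ± 0.06, adjusted p = 0.0164 in edgeR), in 8 of the 11 fits that left out 1 library. It was at 1144, 1200, 1569, 906 and 699 CPM in the rich libraries and at 593, 794, 592, 312 and 240 CPM in the poor ones, so control 5 lay below high-fat 5. Myl1, the fast essential light chain, Casq1, the calcium store protein of fast fibres, and Pvalb, a calcium buffer, had fold changes of 0.31, 0.17 and -0.30 and did not pass.

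The myosins and markers of the faster fibre classes were not called, and their high values fell in 1 or 2 libraries. Myh1, the type 2X myosin, was at 51.3, 75.8, 93.2, 142 and 559 CPM in the rich libraries and at 78.6, 77.0, 39.5, 19.4 and 89.6 CPM in the poor ones. It was high in control 5 and, less so, in control 2, and the other 3 rich libraries lay in or next to the range of the poor side. The fold change was 1.60 ± 0.61 (adjusted p = 0.165). Myh4, the type 2B myosin, was at 150 CPM in control 2 and at 6.90 to 19.1 CPM in the other 10 libraries. Its fold change of 1.63 ± 0.74 (adjusted p = 0.240) rested on that library and was -0.09 without it. Actn3, the alpha-actinin of glycolytic fibres, was at 222 CPM in control 5 and 131 in control 2, but at 10.5, 31.8 and 10.4 CPM in control 6, high-fat 2 and control 4, no higher than the 11.4 to 47.8 CPM of the poor side. Myh1, Myh2 and Myh4 are close copies of each other, and no label says how reads common to them were counted, which leaves their values uncertain to that degree.

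The slow programme showed no called difference. None of the 13 genes of the slow contractile list passed in edgeR's quasi-likelihood test (3 at an unadjusted p under 0.05, 1 with DESeq2, 0 with limma voom), and their median fold change was 0.13 (-0.01 with library totals as the only scaling). Myh7 was at 21291 ± 2745 CPM in the rich and 21316 ± 3431 CPM in the poor libraries (SD, n = 5 each, adjusted p = 0.997 in edgeR). Tnni1 and Tnnc1, the slow forms of 2 troponin subunits, had fold changes of 0.10 ± 0.14 and 0.13 ± 0.15. Of the 13 fold changes, 9 were positive and 4 negative. The list members Myl3 and Myoz2 lay at 0.27 to 0.58 and 0.19 to 0.55 over the 21 alternative fits and were called in none. Myh7b, a slow-type myosin gene, had the slow list's smallest p, at 339 to 523 CPM in the rich and 225 to 348 CPM in the poor libraries (0.49 ± 0.14, adjusted p = 0.0723). Of 4 developmental and other sarcomeric myosins tested none passed in edgeR (3 at an unadjusted p under 0.05, 1 with DESeq2). Myh3, the embryonic form, had a fold change of -0.73 ± 0.29, Myh8, the perinatal form, -1.89 ± 0.64, with 48.8 CPM in control 1 and at most 18.2 elsewhere, and Myh6, the alpha cardiac form, 0.64 ± 0.19 (adjusted p = 0.0789).

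Some genes of the glycolysis and glycogen list were higher in the rich libraries. Of 27 tested, 9 passed and were higher and none was lower, against 0.745% of all genes called higher, with a median of 0.35. The count was 4 with diet (0.186% of all genes higher), 4 with the name letter (0.466%), 4 with the sides from TMM-scaled Myh2 (0.363%), 4 without control 6 (0.222%), 3 without high-fat 2 (0.129%) and 3 without high-fat 5 (0.167%). Fbp2, the muscle fructose-bisphosphatase, was at 10.2, 6.93, 6.10, 7.69 and 4.31 CPM in the rich and at 1.22, 1.61, 2.26, 1.55 and 1.85 CPM in the poor libraries, and the middle library, at 7.74 CPM, lay with the rich side. Its fold change was 2.05 ± 0.25 (adjusted p = 0.0034). Eno3, the muscle enolase, was at 2658, 2518, 2747, 2223 and 1931 CPM against 1288, 1376, 1587, 1507 and 1389 CPM, again with no overlap (0.76 ± 0.12, adjusted p = 0.00941).

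Ldha, the lactate dehydrogenase subunit of glycolytic tissue, was at 69.3 to 98.9 CPM in the rich and 46.6 to 60.5 CPM in the poor libraries (0.64 ± 0.11, adjusted p = 0.0133). Pfkfb1, which makes and breaks down the activator of phosphofructokinase, was at 83.7 to 151 CPM against 43.8 to 87.7 CPM, with an overlap of control 5 and high-fat 4 (1.01 ± 0.20, adjusted p = 0.0196). With the sides from TMM-scaled Myh2 both missed the threshold, and Pfkfb1 also did with the name letter and without high-fat 2 or high-fat 5. Of 15 genes for energy buffering and fuel transport, 2 were higher, against 0.745% of all genes: Slc16a3, a lactate exporter (1.21 ± 0.25, adjusted p = 0.0224), and Ckm, the muscle creatine kinase (0.62 ± 0.15, adjusted p = 0.038). Neither passed with diet as a covariate or without high-fat 2. Slc16a3 was also lost with the sides from TMM-scaled Myh2, and Ckm, which passed in 12 of 21 alternative fits, with the name letter and without 6 other libraries in turn.

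Nuclear genes of oxidative phosphorylation had small differences in 1 direction. All 72 tested had a positive fold change, as did 48.8% of all genes tested, with a median of 0.38 (0.23 with library totals as the only scaling, on which all genes shifted to -0.15), but only Uqcrq, a subunit of complex III, passed (0.67 ± 0.15, adjusted p = 0.0295). That is 1.39% of the list, near the 0.745% of all genes called higher. Uqcrq was at 825, 778, 987, 556 and 618 CPM in the rich and at 397, 451, 485, 464 and 562 CPM in the poor libraries. Control 2 lay just below high-fat 4. The call held in 14 of 21 alternative fits and was lost with diet, with the name letter, and without control 1, control 3, control 6, high-fat 2 or high-fat 5. By other tools 19 of the 72 passed as higher with DESeq2 (2.49% of all genes), 11 with the likelihood ratio test (1.64%) and 1 with limma voom (0.615%). In edgeR's quasi-likelihood test 52 of the 72 had an unadjusted p under 0.05, against 20.3% of all genes. None of 20 genes of the citric acid cycle (median 0.19) and none of 21 genes of fatty acid oxidation (median 0.35) passed in the same test. At an unadjusted p under 0.05 there were 8 and 11 of them, again against 20.3% of all genes, and 0 and 2 passed with DESeq2. The summed level of the oxidative phosphorylation list was 44842 to 57544 CPM in the rich and 37065 to 47723 CPM in the poor libraries, so the sums overlapped.

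Several genes outside the contractile and energy lists were among the 12 most strongly called as higher. Ostn, which encodes the secreted peptide musclin, was at 2.90, 2.45, 1.88, 3.50 and 5.82 CPM in the rich libraries and at 0.245, 0.358, 1.00, 0.639 and 0.764 CPM in the poor ones, near the limit that 3 counts allow (2.47 ± 0.40, adjusted p = 0.0112). Slc36a2, an amino acid transporter, was at 4.37 to 9.86 CPM against 1.83 to 2.33 CPM (1.53 ± 0.24, adjusted p = 0.00941). Both lost the call with the sides from TMM-scaled Myh2. That setting brought in the middle library, at 0.416 CPM of Ostn and 1.25 CPM of Slc36a2, and took out control 5, the highest of all libraries in both.

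Slc14a2, a urea transporter, was at 4.93 to 9.39 CPM in the rich and 1.73 to 3.69 CPM in the poor libraries (1.45 ± 0.25, adjusted p = 0.0133). Rabep2, a protein of endosome fusion, was at 50.3 to 80.1 CPM against 27.7 to 40.6 CPM (0.88 ± 0.14, adjusted p = 0.0097). Both kept the call in all 21 alternative fits of the sides, and neither passed as a slope on Myh2. Rab3b, a small GTPase of vesicle release and the 1 gene outside the sarcomere whose slope passed, was at 16.0, 11.4, 9.76, 12.0 and 10.4 CPM in the rich and at 5.79, 6.38, 3.85, 2.19 and 2.10 CPM in the poor libraries. Its slope was 0.55 ± 0.08 and passed in 5 of the 11 fits that left out 1 library.

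Genes of fibroblasts and the collagen-rich matrix were lower in the rich libraries. Of 20 tested, 15 passed and were lower and none was higher, against 3.45% of all genes called lower, and the median was -1.01. Postn, encoding periostin, a matrix protein of connective tissue and repair, was at 15.5, 14.5, 25.1, 16.7 and 18.0 CPM in the rich libraries and at 59.9, 68.7, 107, 142 and 51.7 CPM in the poor ones. The middle library, at 22.5 CPM, lay with the rich side, and the fold change was -2.26 ± 0.27 (adjusted p = 0.00312). Bgn, the proteoglycan biglycan, was at 88.96, 142, 154, 165 and 163 CPM against 299, 348, 309, 321 and 270 CPM, and was again at the rich level, 142 CPM, in the middle library (-1.12 ± 0.15, adjusted p = 0.0053).

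Aspn, encoding asporin, was at 17.1 to 29.0 CPM in the rich and 51.7 to 91.1 CPM in the poor libraries (-1.56 ± 0.19, adjusted p = 0.00312). Lum, encoding lumican, and Fbn1, encoding fibrillin-1, had fold changes of -1.49 ± 0.22 and -1.11 ± 0.18 (adjusted p = 0.00697 and 0.0127). Sfrp4, a secreted Wnt antagonist, was at 16.9 to 38.5 CPM against 54.4 to 92.1 CPM (-1.62 ± 0.22, adjusted p = 0.00597). Ccdc80, a secreted matrix-binding protein, was at 85.2 to 174 CPM against 250 to 352 CPM (-1.26 ± 0.18, adjusted p = 0.00634). Postn, Bgn, Aspn, Lum, Fbn1, Sfrp4 and Ccdc80 passed in all 21 alternative fits of the sides. As a slope on Myh2 over the 11 libraries with diet, no gene of the list passed. The count for the list was 8 with the sides from TMM-scaled Myh2 (0.503% of all genes lower), 12 with diet (where 1.02% of all genes were called lower), 11 with the name letter (3.54%) and 6 without high-fat 2 (0.58%). The summed level of the list was 2216 to 5127 CPM in the rich libraries, 6973 to 8256 CPM in the poor libraries and 3845 CPM in the middle library.

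Genes of tendon and joint surfaces that passed were lower in the rich libraries. Of 8 tendon genes tested 2 passed, both lower, against 3.45% of all genes: Cilp, a matrix protein of cartilage and tendon, and Thbs4, a thrombospondin of tendon and muscle attachment. Cilp was at 95.1, 116, 139, 158 and 146 CPM in the rich and at 326, 338, 417, 315 and 311 CPM in the poor libraries (-1.38 ± 0.14, adjusted p = 0.00148). Thbs4 was at 82.1, 150, 192, 120 and 106 CPM against 283, 534, 534, 460 and 535 CPM (-1.85 ± 0.23, adjusted p = 0.0034). Cilp passed in all 21 alternative fits of the sides, and Thbs4 lost the call with the sides from TMM-scaled Myh2 (-1.38, adjusted p = 0.0636 in edgeR). No tendon gene tested passed as a slope on Myh2. The middle library held 183 CPM of Cilp, nearer the rich side, and 343 CPM of Thbs4, within the poor side. The tendon marker Tnmd was at 0.581 to 5.02 CPM against 2.98 to 6.95 CPM and did not pass (-1.10 ± 0.45, adjusted p = 0.196). Scx, which drives tendon fate, had a fold change of -0.01.

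Prg4, encoding lubricin, the lubricant of joint and tendon surfaces, had the smallest p of all genes. It was at 42.8 to 52.1 CPM across the rich libraries and at 101, 176, 121, 137 and 169 CPM in the poor ones (-1.58 ± 0.15, adjusted p = 0.00111). The middle library held 198 CPM, above every other library, and with the sides from TMM-scaled Myh2, which put it on the rich side, the fold change was -0.84 and did not pass. Ctsk, the collagen-degrading cathepsin K, was at 8.42 to 15.1 CPM against 23.9 to 29.8 CPM (-1.17 ± 0.15, adjusted p = 0.00378). Ppic, a cyclophilin of the secretory pathway, was at 7.12 to 11.9 CPM against 17.8 to 26.7 CPM (-1.12 ± 0.16, adjusted p = 0.00634).

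Macrophage genes were lower in the rich libraries. Of 18 tested, 17 passed and were lower, against 3.45% of all genes, and the median was -1.29. C1qb, a chain of the complement starter C1q, which resident macrophages make, was at 74.1, 46.2, 101, 68.3 and 56.8 CPM in the rich and at 174, 248, 115, 131 and 184 CPM in the poor libraries (-1.30 ± 0.23, adjusted p = 0.0144). The middle library was at 216 CPM, a level of the poor side. C1qc, a second chain of C1q, Fcer1g, the shared signalling chain of Fc receptors, and Laptm5, a lysosomal membrane protein of blood-derived cells, had fold changes of -1.39 ± 0.26, -1.23 ± 0.23 and -1.03 ± 0.18 (adjusted p = 0.0157, 0.0162 and 0.0133). C1qc and Fcer1g lost the call with diet as a covariate, and C1qc also without high-fat 2.

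C2, an early complement component, was at 24.7 to 43.2 CPM in the rich and 65.4 to 108 CPM in the poor libraries (-1.27 ± 0.17, adjusted p = 0.0053). Chi3l1, a secreted chitinase-like protein, was at 1.75 to 2.63 CPM against 6.21 to 14.2 CPM (-1.97 ± 0.25, adjusted p = 0.0034). For both the middle library, at 74.0 and 13.7 CPM, lay within the poor side. With the sides from TMM-scaled Myh2 both lost the call, at -0.90 for C2 (adjusted p = 0.0988) and -0.95 for Chi3l1 (adjusted p = 0.332 in edgeR).

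The macrophage calls rested on the boundary of the sides and on single libraries. With the sides from TMM-scaled Myh2 none of the 18 passed in edgeR (0 of 18, list median -0.93), where 0.503% of all genes were called lower. With diet as a covariate 4 passed (1.02% of all genes) and with the name letter 17 (3.54%). The count was 9 without control 5 (1.88%), 9 without high-fat 5 (1.16%), 7 without control 6 (1.19%) and 3 without high-fat 2 (0.58%). The summed level of the list was 492 to 949 CPM in the rich and 1132 to 3171 CPM in the poor libraries, with 1525 CPM in the middle library. The matrix sum of the middle library lay with the rich side and its macrophage sum with the poor side. These sums were apart between the same libraries as the sums of the fast contractile list (24030 to 42437 against 11620 to 21131 CPM). Tnnt3 alone held a large part of the fast contractile sums, so their separation is not that of every member. The part of macrophages and fibroblasts in the muscle genes' differences was not tested.

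**Figure D3:**
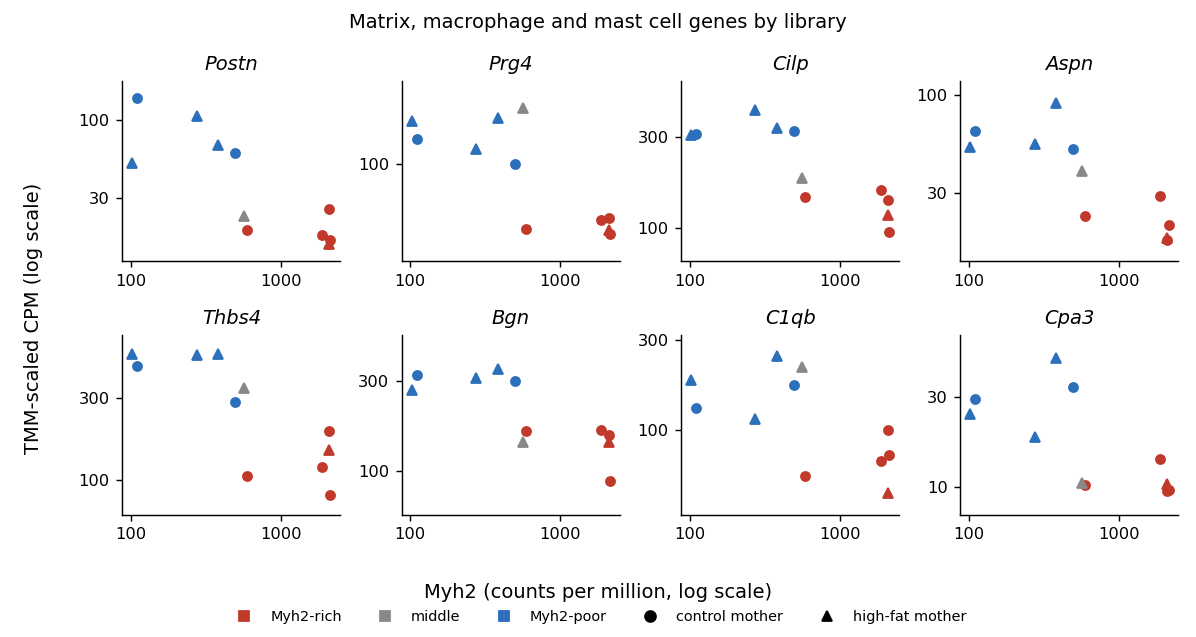
TMM-scaled CPM (log axis) of 8 genes of matrix, tendon, macrophages and mast cells against Myh2 CPM (log axis) in the 11 libraries, with 1 point per library coloured as rich (red), middle (grey) or poor (blue) and shaped by maternal diet. The middle library lies with the rich side in Postn and Bgn (22.5 and 142 CPM) and with the poor side in Prg4 and C1qb (198 and 216 CPM).

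Fewer genes of the other cell lists passed. Against 3.45% of all genes called lower, 2 of 5 genes of lymphocytes and mast cells tested passed, both mast cell proteases and both lower: Cpa3, at 9.48 to 14.0 CPM against 18.4 to 48.0 CPM (-1.52 ± 0.23, adjusted p = 0.00732), and Tpsb2, at 8.97 to 19.8 CPM against 22.3 to 44.9 CPM (-1.05 ± 0.22, adjusted p = 0.0236). Of 10 adipocyte genes 1 passed, Cfd, encoding adipsin (-1.27 ± 0.24, adjusted p = 0.0175), while Adipoq, the defining adipokine, did not (-1.34 ± 0.42, adjusted p = 0.0998). The adipocyte median was -1.09, and 8 of the 10 had a negative fold change. In edgeR's quasi-likelihood test 8 had an unadjusted p under 0.05, against 20.3% of all genes. Of 8 blood cell genes 1 passed, Pf4, a platelet and macrophage chemokine (-1.10 ± 0.23, adjusted p = 0.0229). Cpa3 passed in all 21 alternative fits of the sides but not as a slope on Myh2. Tpsb2 and Pf4 passed in 16 each, both being lost with diet, with the sides from TMM-scaled Myh2, and without control 6 or high-fat 2, Tpsb2 also without high-fat 5 and Pf4 without control 5. Cfd was lost with the sides from TMM-scaled Myh2 and without high-fat 2. None of 12 endothelial, 10 smooth muscle and pericyte or 10 Schwann cell genes passed in edgeR's quasi-likelihood test, nor did any with DESeq2, and 0, 1 and 5 of them had an unadjusted p under 0.05. With the name letter as a covariate 2 endothelial genes were called higher (0.466% of all genes). The Schwann cell median was 0.82, and 0.16 without control 5.

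**Figure D4:**
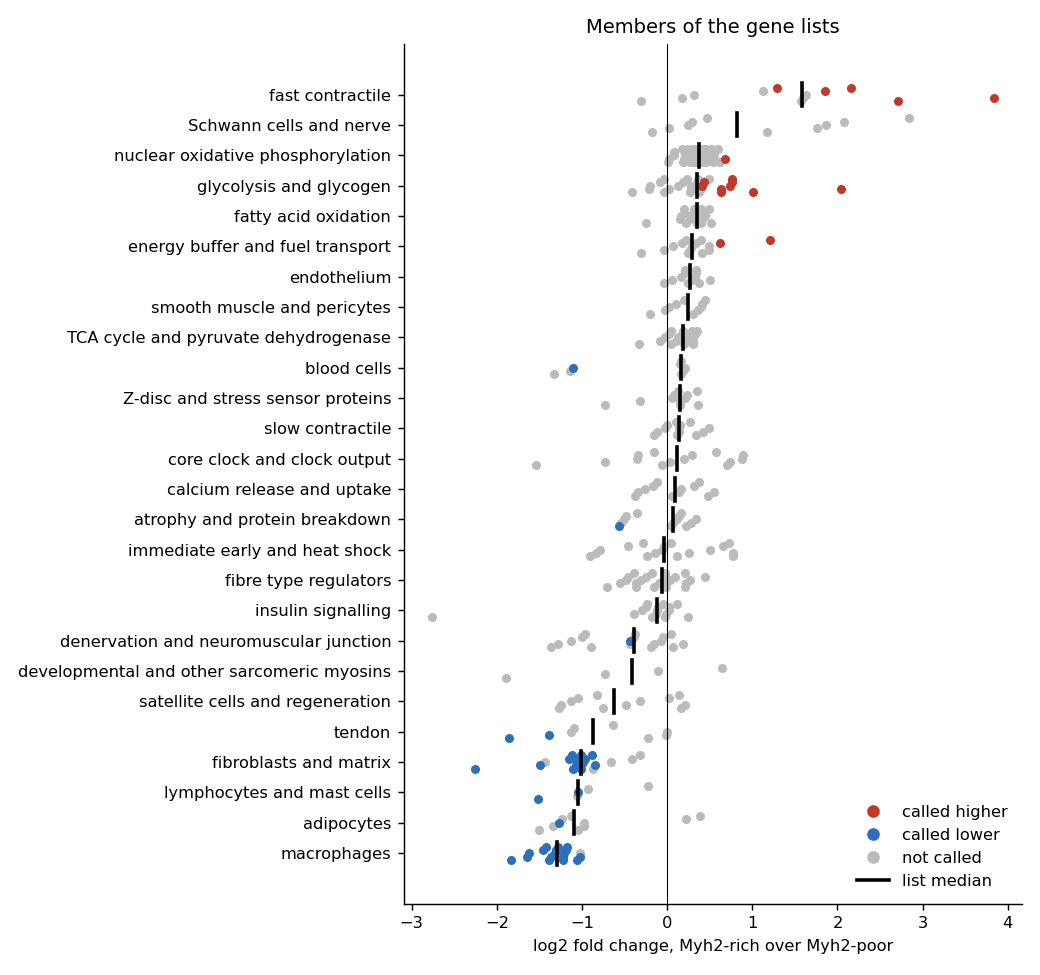
Log2 fold change of Myh2-rich over Myh2-poor libraries (horizontal axis) for every tested member of each gene list (rows, ordered by median), with called members in red (higher) or blue (lower), others in grey and a black bar at the list median. The fast contractile list has the highest median (1.59) and the macrophage list the lowest (-1.29), and 17 of 18 macrophage genes are called.

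The body and blood measures in the labels gave no call between the 2 sides. None of 13 measures passed an exact permutation test after Benjamini-Hochberg adjustment (smallest adjusted p = 0.766). The smallest unadjusted p was that of mesenteric fat, 10.8 ± 1.45 g on the rich and 7.82 ± 2.72 g on the poor side (SD, n = 5 each, exact permutation test, two-sided p = 0.0794). Body weight was 806 ± 68.3 g against 751 ± 132 g (exact permutation p = 0.413). Plasma insulin was 1.69 ± 0.22 ng/ml (n = 5) against 2.00 ± 0.70 ng/ml (n = 4, exact permutation p = 0.333). The smallest p that 5 against 5 animals can give in this test is 0.00794.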

How the data were processed

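Poly(A) RNA of 11 rat soleus samples was sequenced on an Illumina Genome Analyzer. The values are whole-number counts of reads for each gene, not normalized, in a single table that the authors deposited. The submitters' processing notes name FastQC, BWA, HTSeq and edgeR without versions or roles. No build of the genome is given in the sources used here. The table has 16810 rows, of which 2712 are 0 in every library; 24 rows whose gene names had been turned into dates (0.107% of counts) were never named. 1 gene is not reported here.

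Myh2 was taken out before filtering and fitting, and library sizes stayed the full totals. Genes were filtered with filterByExpr by side and scaled by TMM, and tested with edgeR 4.0.16 (quasi-likelihood F test, R 4.3.3), with Benjamini-Hochberg adjustment over all genes tested at 0.05. The biological coefficient of variation was 0.205. The slope fits used all 11 libraries. The alternatives were other scalings, filters and covariates, the edgeR likelihood ratio test, DESeq2 1.42.0, limma voom 3.58.1, the sides from TMM-scaled Myh2 and leaving out each library. Animal measures and library size were compared with exact permutation tests (SciPy 1.17.1).

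The rule for naming took the 12 genes with the smallest p per direction and the members of the fast and slow lists. It also took up to 4 members by p of each other list and all called members of lists with 5 or fewer calls. Myh1, Myh4, Myh7, Myh3, Myh8, Ppargc1a and Slc2a4 were always taken. Some of these genes, among them Myl2, Tnnt1, Atp2a2 and Mb, are given no values in the text. Rab3b (from the slope) and Scx were named after their values were seen. The sides, lists and tests were chosen with earlier results of these data known, so no list is independent evidence. On simulated counts for this comparison (10677 genes) the fit recovered 38.8% of genes changed 1.5-fold, 71.6% of those changed 2-fold and 93.9% of those changed 4-fold, with 5 false calls among 141. Because the sides were chosen by a measured gene, p-values describe what went with Myh2 in these animals.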

Additional observations from a re-analysis of the deposited data

Results flagged for a closer look

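Within each side, the values of 76 genes chosen for naming and of the animal measures were searched for a single library far from the other 4 (or 3). Chance alone finds one in about 1 in 20 such groups. Of 180 groups 15 held one. Gene levels here are CPM scaled over the 10 libraries compared.

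On the rich side, control 5 stood above the other 4 libraries in Myh1 (562 CPM, others at most 142) and Mbp (848 CPM, others at most 97.2). Control 2 stood above in Myh4 (151 CPM, others at most 19.2) and Cpa3 (14.1 CPM, others at most 10.4). Control 6 stood above in Slc25a20, the carnitine carrier of mitochondria (357 CPM, others at most 299.5), and control 4 in Socs3, an inhibitor of cytokine signalling (5.38 CPM, others at most 2.83).

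On the poor side, high-fat 4 held 90.9 CPM of Socs3 (others at most 6.51) and 16.3 CPM of Ppargc1a, a coactivator of mitochondrial genes (others at most 7.86). High-fat 5 held 41.5 CPM of Chrng, the fetal acetylcholine receptor subunit (others at most 16.9), 45.1 CPM of Tpsb2 (others at most 27.8) and the lowest Tnni1 (4642 CPM, others at least 5610). High-fat 3 held 419.5 CPM of Cilp (others at most 339.5).

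Among the animal measures, control 6 had the lightest brain of its side (1.71 g, others at least 1.97 g) and control 2 the highest insulin (2.08 ng/ml, others at most 1.67). High-fat 4 had a glucose of 10.98 mmol, against at most 6.60 in the other measured animals of the poor side.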

How the results depend on the processing

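No paired analysis was possible because the sides were set by rank across both diet groups, while the numbers in the column names of the count table count animals within each diet group, and no label says that a number is shared. Against 450 calls (80 higher, 370 lower), the likelihood ratio test gave 779 (176 and 603), DESeq2 864 (267 and 597), library totals as the only scaling 41 higher and 566 lower, diet as a covariate 130 (20 and 110), the name letter 430 (50 and 380, with 277 of the 450 shared), and the sides from TMM-scaled Myh2 93 (39 and 54). Leaving out 1 library gave 77 to 463 calls (14 to 113 higher, 63 to 384 lower), with 153 without control 6, 143 without high-fat 5 and 77 without high-fat 2. For lists and single genes, the letter, the TMM-scaled sides, the other tools and the filters were added after seeing the data. All 450 genes kept their sign with diet, with the letter and as slopes. These fits reuse the libraries in which the 450 were called, and the slopes reuse the Myh2 values that set the sides. Like signs were therefore likely beforehand and are no independent check. The slope fit gave 11 calls without the covariate, and 4 to 11 without 1 library (10 without high-fat 4, 11 without high-fat 5); the interaction gave 0 in all 11 such fits.

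Of single genes, these changed sign, none of them called in the comparison of the sides. Myh7 turned from -0.0017 to 0.0103 (RLE scaling and DESeq2), 0.0030 (no filter), 0.0044 (limma voom), 0.0028 (diet) and 0.0046 (letter), and lay between -0.066 and 0.066 without 1 library. Tpm3 was 0.026 with the letter and -0.070 to 0.066 without 1 library. Pvalb was 0.079 with diet and -0.98 to 0.45 without 1 library. Myh4 was -0.089 to 1.92 without 1 library. Ppargc1a was -0.24 with the letter, and with library totals only Tnni1 was -0.044 and Tnnc1 -0.0119.

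Without 1 library the difference rich minus poor was -6.85 to 10.9 g for total fat, -7.55 to 6.90 g for perirenal fat, -2.66 to 0.10 g for abdominal fat, -0.035 to 0.11 g for the heart, -0.043 to 0.063 g for the brain and -0.59 to 0.71 M counts for library size. The cause of these changes was not tested. Genes changed by less than 2-fold were often missed at this number of libraries, per the simulated counts.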

Other observations

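Gene groups of muscle regulation, which the lists also covered, held few calls. None of 24 fibre type regulators (median -0.07), 12 genes of calcium release and uptake (median 0.10), 11 Z-disc and stress sensor proteins (median 0.15), 16 genes of insulin signalling (median -0.12), 17 immediate early and heat shock genes (median -0.04), 14 clock genes (median 0.12) or 12 genes of satellite cells and regeneration (median -0.62) passed in edgeR's quasi-likelihood test, in which 2176 of all genes (20.3%) had an unadjusted p under 0.05. At that unadjusted level the lists held 6, 5, 0, 2, 0, 5 and 3 genes in the same order, and DESeq2 called 1, 2, 0, 0, 0, 1 and 1 of them. With diet as a covariate 2 clock genes were called higher (0.186% of all genes). With the name letter 2 satellite cell genes and 1 fibre type regulator were lower (3.54%), and 1 calcium gene was higher (0.466%). Ppargc1a had a fold change of 0.23 ± 0.33, and Slc2a4, the insulin-responsive glucose transporter, 0.34 ± 0.14 (adjusted p = 0.208). Slc2a4 was at 640 to 1055 CPM in the rich and 568 to 795 CPM in the poor libraries.

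Of 17 genes of denervation and the neuromuscular junction 1 passed and was lower, against 3.45% of all genes. The list median was -0.39, and 14 of the 17 had a negative fold change. In edgeR's quasi-likelihood test 7 had an unadjusted p under 0.05 (20.3% of all genes), and DESeq2 called 3 lower (5.56%). With the name letter 5 of the 17 were lower (3.54% of all genes). The gene that passed was Ncam1, a cell adhesion molecule, at 60.6 to 75.1 CPM in the rich and 74.5 to 110 CPM in the poor libraries (-0.44 ± 0.11, adjusted p = 0.0495). It passed in 7 of 21 alternative fits, not among them the one with diet. Chrng and Gadd45a, a stress-response gene that rises in denervated muscle, had fold changes of -1.36 ± 0.37 and -1.28 ± 0.40 (adjusted p = 0.0568 and 0.0985). Of 13 genes of atrophy and protein breakdown (median 0.06) 1 passed and was lower, against 3.45% of all genes. This was Ctsl1, encoding cathepsin L, at 118 to 132 CPM against 145 to 234 CPM (-0.57 ± 0.13, adjusted p = 0.0338), with 265 CPM in the middle library. It passed in 12 of 21 alternative fits, was lost with diet, and was at -0.27 with the sides from TMM-scaled Myh2 (adjusted p = 0.542 in edgeR). Arntl, the clock gene Bmal1, was at 3.20 to 20.5 CPM in the rich and 4.94 to 58.6 CPM in the poor libraries (-1.54 ± 0.53, adjusted p = 0.128).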
